A study of Mus musculus with 18 samples.

Results

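The collagen genes of C2C12 muscle cells were followed through differentiation and through depletion of Setd2. C2C12 is a mouse skeletal muscle line that grows as single-nucleated myoblasts and fuses into myotubes, and Setd2 encodes a histone methyltransferase that acts on transcribed genes. Members were the protein-coding genes whose symbol is Col, digits, a and digits, which gave 44 of 21702 protein-coding genes (47311 genes in all). By the structure of their products, 11 are fibrillar, 6 belong to the type IV collagens of basement membranes and 6 to the beaded filaments of type VI. A further 9 are fibril-associated, 4 form networks or anchoring fibrils, 2 are multiplexins, 4 are transmembrane and 2 (Col26a1 and Col28a1) remain outside these classes.

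PolyA RNA was sequenced from 18 libraries in 6 groups of 3, which the labels call biological replicates. The groups were myoblasts with a control siRNA, with Setd2 siRNA 1 and with Setd2 siRNA 2, and myotubes with the same 3 siRNAs. All cells came from 1 line, and per the labels' protocols every group was stretched just before RNA was taken. No unstretched group was analysed here. In bulk RNA, a change in the share of cells that carry a transcript and a change in its level per cell cannot be told apart.

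Collagens are the main structural proteins of the extracellular matrix. Fibrillar collagens such as types I, III and V form the tensile fibrils of connective tissue, type IV collagen forms the sheet of the basement membrane that wraps each muscle fibre, and type VI links that sheet to the fibrils. Variants in the type VI and type XII genes cause inherited myopathies. Chains wind around each other in a helix that needs the small amino acid glycine at a fixed spacing, so the coding sequence of a collagen gene repeats a glycine codon (GGN) followed by a pair of other codons. In the longest annotated coding transcript of each member, uninterrupted runs of at least 5 such triplets were counted.

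The fibrillar chains Col1a1, Col1a2, Col2a1, Col3a1, Col5a1, Col5a2, Col5a3, Col11a1 and Col11a2 had a longest run of 337 to 344 triplets, and the fibrillar Col24a1 and Col27a1 had longest runs of 216 and 217. In the other classes the repeat was broken up: Col4a1 held 22 runs, the longest of 40 triplets, Col13a1 held 7 runs, the longest of 44, and in Col12a1 such triplets covered 8.12% of the codons. The opening 54 bases of the longest run are shown for a fibrillar, a basement membrane and a transmembrane chain, with glycine codons in capitals, because this repeat defines the family. They were read from GENCODE M21 transcripts of mm10 and start at codon 168 of Col1a1-201, codon 43 of Col4a1-201 and codon 468 of Col13a1-205.
Col1a1: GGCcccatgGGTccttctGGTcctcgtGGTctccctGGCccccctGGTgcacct
Col4a1: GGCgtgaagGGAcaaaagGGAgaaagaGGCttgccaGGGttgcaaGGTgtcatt
Col13a1: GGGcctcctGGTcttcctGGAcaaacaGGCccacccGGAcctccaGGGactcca

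Several members are neighbours. Col4a1 (chromosome 8, positions 11198423 to 11312826 of mm10, minus strand) and Col4a2 (chromosome 8, 11312805 to 11449287, plus strand) point away from each other and their annotated starts overlap by 22 bases, chr8:11312805-11312826. These bases, given on the plus strand from RefSeq's GRCm38.p6 promoter table, are shown because both genes moved together in the results below.
Col4a1 and Col4a2 shared start: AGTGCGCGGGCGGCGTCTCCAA
Col4a4 and Col4a3 also start head to head, 71 bases apart, as do Col4a6 and Col4a5, 1308 bases apart. Col3a1 and Col5a2 lie 24614 bases apart on chromosome 1 on opposite strands, and Col6a2, Col6a1 and Col18a1 lie in a row on the minus strand of chromosome 10. No source used here says whether the libraries keep the strand, and reads from the overlap of Col4a1 and Col4a2 cannot be assigned to 1 gene with certainty.

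Library sizes ran from 43.5 to 66.6 megareads. Setd2 stood at 99.3 to 120.8 CPM (counts per megaread, scaled by TMM) in the control libraries and at 33.6 to 58.2 CPM in the depleted ones, with log2 fold changes of -1.46 and -1.33 in myoblasts and -1.20 and -1.54 in myotubes for siRNA 1 and siRNA 2 (adjusted p at most 0.00299, edgeR's quasi-likelihood test). Library names start with C14 or D2 in myoblasts and with C13 or D1 in myotubes, and what the prefixes mean was not stated. Both occur in each group, though in unequal numbers, so counts of called members, and single values whose call it changed, are also given with the prefix in the model. Where such a gained call was absent when libraries of 1 prefix were summed, that is said. Of the 28 members tested in both stages, 10 were higher in every C library than in every D library of the same group in all 6 groups (Col1a1, Col1a2, Col3a1, Col5a1, Col5a3, Col6a1, Col6a2, Col11a1, Col12a1 and Col18a1), and Col23a1 was lower in the C libraries in all 6. The share of all genes with such an order was not counted. Over all genes tested, deviations from group means correlated positively between libraries of like prefix in unlike groups (r from 0.103 to 0.507). Between libraries of unlike prefix they correlated negatively (-0.562 to -0.0501). Deviations cancel out within a group that holds both prefixes, so the negative values follow in part from the positive ones. For myoblasts with siRNA 2, replicate 3 has SETD3 in its column name where the label has SETD2, and the third myotube control is named NT_2 where other controls are NT_1. Muscle markers summed to 861 to 1067 TPM in the control myoblast libraries, 1039 to 1177 after siRNA 1 and 1206 to 1361 after siRNA 2, and to 16310 to 17190 TPM in control myotubes and 17180 to 18240 in depleted ones. The 10 fibroblast markers, most of their sum being Gsn, stood at 203.5 to 223.7 TPM in the control myoblast libraries, 237.1 to 255.6 after siRNA 1 and 262.2 to 283.1 after siRNA 2, without overlap, and at 383.2 to 424.5 in control myotubes and 453.3 to 548.0 in depleted ones. Thy1 and Tcf21 of that list stayed under 0.1 TPM in every group. Dpt, Lum and Clec3b were under 0.1 TPM in control myoblasts but not in control myotubes. All 7 fibroblast markers tested on differentiation rose, against 39.4% of all genes, though only 4 passed the filter in myoblasts. In myotubes 3 of 7 rose with siRNA 1 and 1 with siRNA 2, against 11% and 15.8%. Adipocyte markers summed to 19.9 to 28.6 TPM in myoblasts, 12.7 to 14.7 in control myotubes and 18.1 to 22.9 in depleted myotubes, Pparg reaching 23.5 and Lpl 16.2 TPM, with Plin1 and Cidec under 0.1 TPM. Macrophage markers summed to at most 13.7 TPM, Cd14 reaching 10.6 TPM, with Ptprc and Adgre1 under 0.1 TPM, and endothelial markers to at most 2.50 TPM, with Tie1 and Emcn under 0.1. Cartilage and bone markers summed to 42.8 to 98.1 TPM, led by Sox9 (up to 59.9 TPM), with Acan, Matn1 and Ibsp under 0.1. The 5 tendon markers summed to 142.7 to 154.3 TPM in control myoblasts and 407.5 to 458.9 TPM in control myotubes. Most of that was the tendon factor Scx, which reached 113.6 TPM in a control myoblast library and 381.9 TPM in a control myotube library. Tnmd and Thbs4 of that list were under 0.1 TPM in control myoblasts, as was Thbs4 in control myotubes. The part of these markers in the collagen results was not tested.

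The filter on low counts kept 30 members in the myoblast libraries, 35 in the myotube libraries and 37 when all 18 were fitted together. Col2a1, Col6a4, Col6a5, Col6a6, Col9a1, Col9a2 and Col9a3 were in no fit, with at most 12 counts in any library. Levels are compared between genes in TPM, which corrects for transcript length. The TPM of a gene sums all its annotated transcripts, short ones included. In control myoblasts 13 members reached 10 TPM and 19 reached 1 TPM, and in control myotubes 15 and 23 did.

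Collagen RNA in control cells was dominated by a few fibrillar genes. Col3a1, the chain of type III collagen, led in both stages: its level in the 3 control myoblast libraries was 711.3, 606.1 and 583.8 TPM, and in the 3 control myotube libraries 700.1, 628.6 and 725.3 TPM. Both ranges overlap, and Col3a1 alone, summed over its transcripts, made up 33.6% of collagen TPM in control myoblasts. Col1a2, which encodes the second chain of type I collagen, followed with 327.3 ± 33.0 TPM (SD, n = 3) in myoblasts and 297.8 ± 31.7 TPM in myotubes, overlapping again. Its partner Col1a1, which supplies most chains of type I collagen, was far lower. Its level was 25.9, 17.3 and 16.3 TPM in control myoblasts and 83.2, 50.3 and 94.2 TPM in control myotubes, so that the 2 type I chains were not at equal RNA levels in either stage.

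After Col3a1 and Col1a2, the order in control myoblasts was Col6a3 (202.2 ± 5.77 TPM), Col18a1 (188.1 ± 8.07), Col5a2 (126.3 ± 4.71), Col4a1 (101.1 ± 4.42), Col5a1 (88.8 ± 4.91) and Col4a2 (80.9 ± 2.28). Libraries of Col6a3 and Col18a1 lay next to each other, from 198.5 to 208.9 and from 182.5 to 197.3 TPM, without overlap. Those of Col5a1 (84.8 to 94.3 TPM) and Col4a2 (78.3 to 82.6 TPM) did not overlap either. The place of Col6a3 above Col18a1 holds for the sum over transcripts. In control myoblasts the 3-exon Col6a3-207 held 29.0% of Col6a3 TPM, while Col18a1-202 (42 exons) held 98.9% of Col18a1 TPM. In control myotubes Col5a2 (204.3 ± 4.15 TPM) and Col5a1 (172 ± 20.3) came after Col1a2. Behind them Col1a1, Col6a3, Col4a1, Col5a3, Col18a1, Col4a2, Col12a1 and Col6a1 had means between 53.7 and 75.9 TPM, with library ranges that overlapped between neighbours in that order.

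**Figure D1:**
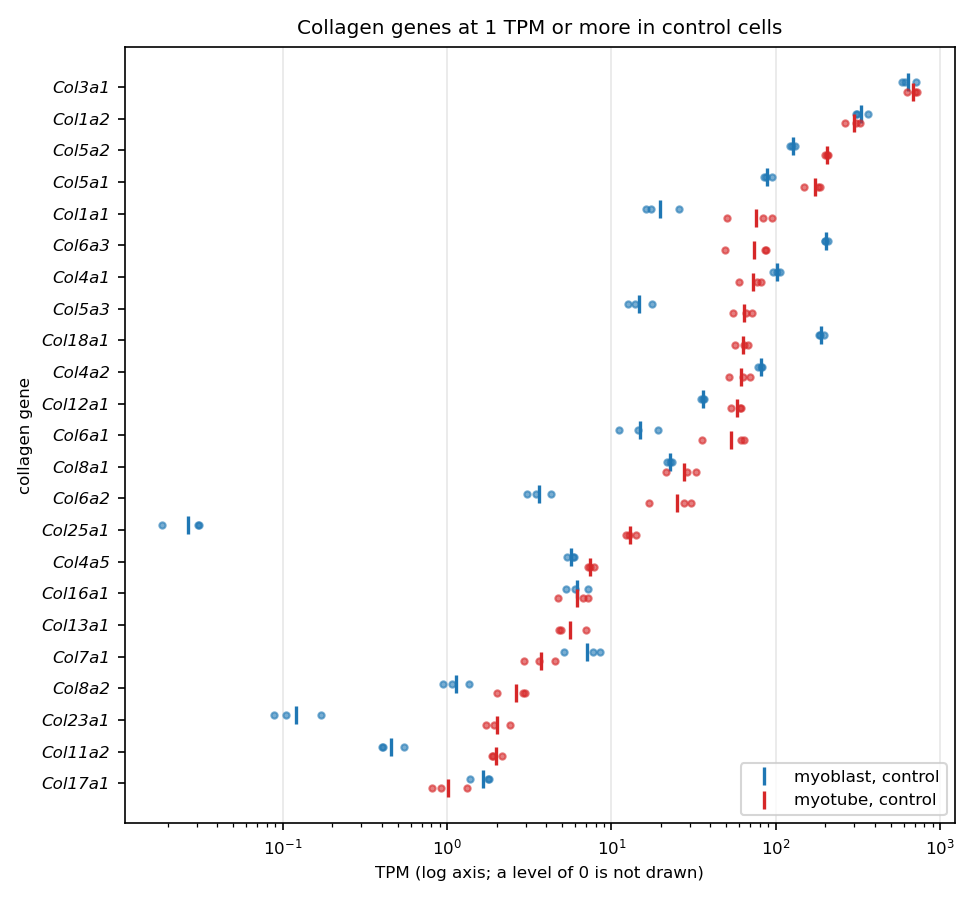
TPM on a log axis for the 23 collagen genes that reached a mean of 1 TPM in control myoblasts or control myotubes. Points are the 3 libraries of each group and vertical ticks are group means. Col13a1 was at 0 in all control myoblasts and is drawn for myotubes only. Col3a1 and Col1a2 keep their place at the top in both stages, whereas Col1a1, Col5a3, Col6a1 and Col6a2 lie to the right in myotubes and Col6a3 and Col18a1 to the left.

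Differentiation was read from control myotubes against control myoblasts, in the fit of all 18 libraries. Of 37 members tested, 24 rose and 6 fell, against 39.4% of all 16930 genes tested that rose and 38.1% that fell. Col13a1, Col15a1, Col20a1, Col22a1, Col25a1, Col26a1 and Col28a1 passed the filter only because of myotube libraries and all rose, as they had to. Of the 30 members that also passed in myoblasts, 17 rose, 6 fell and 7 did not pass the test. Their median log2 fold change was 0.63, against 0.0038 over all genes tested. The latter were not limited to genes that passed in myoblasts. Each stage has its own prefixes, so a value within a prefix cannot be given for differentiation. A difference between these sets of libraries cannot be told apart from a difference between the stages.

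Among 10 fibrillar genes tested, 8 rose and 0 fell. Col1a1 rose 3.63-fold (log2 fold change 1.86, SE 0.35, adjusted p = 0.000263), and its libraries did not overlap between the stages. Col5a3, the third chain of the type V family, went from 17.6, 13.9 and 12.7 TPM to 66.1, 54.8 and 71.5 TPM, a 4.32-fold rise. Col5a1 and Col5a2, which make up most type V collagen, the collagen that sets the width of type I fibrils, rose 1.88- and 1.59-fold (adjusted p = 7.32e-07 and 9.77e-11). Col11a2, a chain of cartilage-type collagen XI, rose 4.08-fold from a low level (0.453 to 1.98 TPM), and Col24a1 rose 3.63-fold from 50 to 171 counts over the group, a call lost with limma on log2(TPM + 0.5) (adjusted p = 0.0914). Col11a1 rose 2.19-fold (adjusted p = 0.0153), a call lost without the third myoblast control (0.0768) or the third myotube control (0.0953) or with limma (0.0648), and Col27a1 rose 2.28-fold. Col1a2 and Col3a1 did not pass, with log2 fold changes of -0.15 and 0.09.

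The 3 expressed chains of type VI collagen went in opposite directions. Col6a1 was at 19.2, 14.4 and 11.2 TPM in control myoblasts and at 64.0, 35.4 and 61.6 TPM in control myotubes, and rose 3.51-fold (adjusted p = 0.000156). Col6a2 was at 4.29, 3.50 and 3.08 TPM in myoblasts and at 30.3, 17.0 and 27.6 TPM in myotubes, a 6.66-fold rise (adjusted p = 2.31e-06). Col6a3, whose product joins the other chains in the heterotrimer, was at 198.5, 208.9 and 199.3 TPM and fell 2.98-fold to 87.0, 49.1 and 85.4 TPM (adjusted p = 9.53e-05). No library of a stage overlapped the other stage in any of the 3 genes. Summed over transcripts, Col6a3 RNA was thus far above Col6a1 and Col6a2 in myoblasts. The 3 chains were closer in myotubes, at means of 73.8 (Col6a3), 53.7 (Col6a1) and 25.0 TPM (Col6a2). In myotubes the D1 library was the lowest of the controls for each of the 3. Of Col6a3 TPM, the 3-exon Col6a3-207 and Col6a3-206, the latter a retained intron, held 29.0% and 8.87% in control myoblasts. In control myotubes they held 29.5% and 12.4%, whereas Col6a1-201 (35 exons) held 98.8% of Col6a1 TPM. The order of the chains on long transcripts alone was not compared.

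Of 6 type IV genes, 1 rose and 2 fell. The head-to-head pair fell together: Col4a1 by 0.50 and Col4a2 by 0.42 on the log2 scale (adjusted p = 0.000315 and 0.000468). Col4a1 stood at 96.6, 101.4 and 105.4 TPM in myoblasts and at 76.5, 59.3 and 81.2 TPM in myotubes, and Col4a2 at 78.3, 82.6 and 81.7 against 63.5, 51.6 and 69.4 TPM. Col4a5 rose 1.29-fold, from 5.70 ± 0.291 to 7.45 ± 0.341 TPM. Col4a3, Col4a4 and Col4a6 were under 0.07 TPM in each control library, and their differences did not pass. Type IV RNA summed to 187.8 ± 6.18 TPM in control myoblasts and to 141.3 ± 20.5 TPM in control myotubes.

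The multiplexin Col18a1 (chromosome 10, 77052178 to 77166548), a basement membrane proteoglycan core from which endostatin is cut, fell 3.13-fold. It was at 197.3, 182.5 and 184.5 TPM in control myoblasts and at 64.1, 56.5 and 67.8 TPM in control myotubes, with a log2 fold change of -1.65 (SE 0.16, adjusted p = 3.89e-07). The other multiplexin, Col15a1, stayed under 0.3 TPM in every control library. It rose 4.16-fold (adjusted p = 0.00702) but had 10 counts over the 3 control myoblast libraries, and the call was lost without the third myotube control (2.38-fold, adjusted p = 0.106) and with limma (0.0509).

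Of the transmembrane collagens, Col13a1 and Col25a1 had few or no counts in myoblasts, and both passed the filter only through the myotube libraries. Col13a1 (chromosome 10, 61838236 to 61979108), a protein of the neuromuscular junction, had 0 counts in the control myoblasts and 4.94, 6.99 and 4.80 TPM in control myotubes. It was at least 511-fold higher there (1428 counts), with the myoblast group set to 3 counts in all, the limit that a count of 0 allows. Col25a1 (chromosome 3, 130131501 to 130599877), which muscle needs for its innervation by motor axons, went from 14 counts over the group (0.0185, 0.0306 and 0.0309 TPM) to 5838 counts (12.3 to 14 TPM), a 438-fold rise. Col23a1 rose 10.6-fold, from 62 to 621 counts over the group. Col17a1, a hemidesmosome protein of epithelia, fell 2.08-fold, from 696 to 315 counts.

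RefSeq's promoter table held 38 windows for 35 of the 44 members, each of 300 bases. The 250 bases before the start are shown for these 2 transmembrane genes, 5′ to 3′ on the gene's own strand (GRCm38.p6, chr10:61979109-61979358, minus strand, for Col13a1, and chr3:130180595-130180844, plus strand, for Col25a1). The Col25a1 window precedes the start that RefSeq gives, which lies inside the GENCODE span of the gene stated above, downstream of the start there. Capitals mark matches on either strand to the TATA box, spelt TATAAA. They also mark the CCAAT box, spelt as in its name, and the E-box form that myogenic factors bind, spelt CAGCTG.
Col13a1: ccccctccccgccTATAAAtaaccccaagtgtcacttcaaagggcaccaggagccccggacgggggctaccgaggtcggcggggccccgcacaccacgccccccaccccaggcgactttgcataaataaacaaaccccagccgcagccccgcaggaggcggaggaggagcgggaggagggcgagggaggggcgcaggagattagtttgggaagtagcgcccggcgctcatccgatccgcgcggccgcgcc
Col25a1: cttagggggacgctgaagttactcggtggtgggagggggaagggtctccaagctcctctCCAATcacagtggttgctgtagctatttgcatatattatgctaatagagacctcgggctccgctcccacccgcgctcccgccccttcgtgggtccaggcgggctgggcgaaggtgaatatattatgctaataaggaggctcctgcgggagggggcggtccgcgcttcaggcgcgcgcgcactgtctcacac
The TATAAA of Col13a1 starts 237 bases and the CCAAT of Col25a1 191 bases before the start, and neither stretch held a CAGCTG. Over the full 300-base windows, CAGCTG was present in 7 of 38 collagen windows (18.4%) and in 16.3% of all 32851 windows, TATAAA in 13.2% and 13.6%, and CCAAT in 34.2% and 37.4%.

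Of the 4 fibril-associated genes that passed the filter in myoblasts, 3 rose and 0 fell, while Col20a1 and Col22a1 passed only through myotubes and had to rise. Col12a1, which coats type I fibrils, rose 1.51-fold, from 35.9 ± 0.898 to 58.3 ± 4.49 TPM. Col22a1, a collagen of the myotendinous junction, rose 32.8-fold from 6 counts over the control myoblast libraries to 195 in myotubes, and 60.1-fold without the first myoblast control. Col19a1, Col20a1 and Col14a1 rose 6.14-, 6.26- and 2.39-fold and stayed below 1 TPM, Col19a1 being 10.6-fold higher without the first myoblast control. Among the network-forming genes, Col8a2 rose 2.43-fold (1.13 ± 0.208 to 2.64 ± 0.532 TPM), Col10a1 rose 3.65-fold at under 0.4 TPM with overlapping libraries, and Col7a1, the anchoring fibril collagen of skin, fell 1.55-fold (adjusted p = 0.00312). Col8a1, partner of Col8a2 in type VIII collagen, did not pass (log2 fold change 0.27, adjusted p = 0.0909), except without the second myotube control (0.00548). Col26a1 and Col28a1, the genes outside the classes, each had 6 counts over the control myoblasts and 198 and 56 in the myotubes. Without the first myoblast control Col26a1 was 107-fold higher, against 32.6-fold with it, and the call for Col28a1 was lost with limma (adjusted p = 0.103).

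The sum over all 44 members overlapped between the stages, while its make-up differed. Collagen RNA summed to 1884 ± 119 TPM in control myoblasts and 1982 ± 210 TPM in control myotubes, with overlapping libraries. The fibrillar share was 64.2% in myoblasts and 75.9% in myotubes, the type VI share 11.7% and 7.59%, and the multiplexin share 10% and 3.18%.

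**Figure D2:**
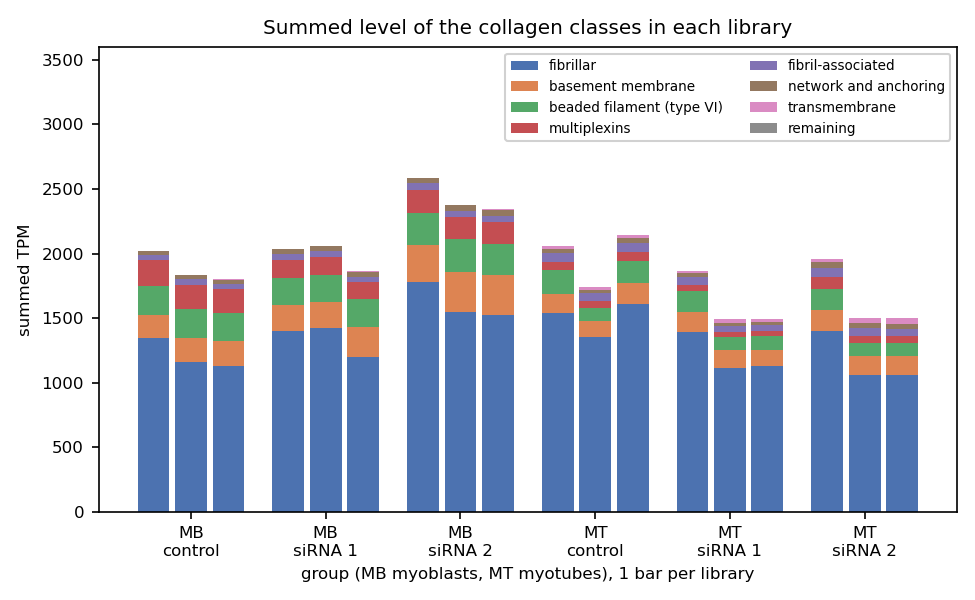
Summed TPM of the 8 collagen classes, stacked, with 1 bar for each of the 18 libraries. Fibrillar genes make up the bulk of every bar. The 3 myoblast bars of siRNA 2, between 2341 and 2588 TPM, stand above all other bars, and the multiplexin band is thinner in myotubes than in myoblasts.

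Depletion of Setd2 in myoblasts was tested against the control siRNA in the 9 myoblast libraries. With siRNA 1, 6 of 30 members rose and 2 fell, against 11.6% and 8.44% of 15586 genes tested. The members' median log2 fold change was 0.12, against 0.0055 over all genes tested. Adding the prefix to the model gave 11 up and 5 down, against 18% and 14.3% of all genes. With siRNA 2, 13 of 30 rose and 1 fell, against 17.1% and 16.5%, and the median was 0.43, against 0.0002. Adding the prefix gave 17 up and 2 down, against 23.7% and 22.6%. Collagen RNA as a whole reached 2435 ± 134 TPM with siRNA 2, above the controls in every library, and 1986 ± 108 TPM with siRNA 1, which overlapped the controls. Both siRNAs were compared with the same control libraries.

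Col4a2, Col4a5, Col5a2, Col8a1, Col16a1 and Col27a1 rose with both siRNAs, where 7.69% of all genes did, and adding the prefix gave 10 such members. With the prefix, 18% and 23.7% of all genes rose with siRNA 1 and siRNA 2 taken singly. The share of all genes that rose with both in that model is not given here. Col8a1 (chromosome 16, 57624258 to 57754737), a short network-forming collagen of vessel walls, stood above the controls with each: its level was 60.0, 63.1 and 64.2 CPM in controls, 99.5, 99.3 and 104.4 CPM with siRNA 1 and 95.9, 102.3 and 108.5 CPM with siRNA 2. The rises were 1.62- and 1.64-fold (adjusted p = 8.51e-07 and 2.4e-07), the depleted libraries lay above all controls, and the prefixes gave log2 ratios between 0.68 and 0.73. Col27a1, a fibrillar collagen of cartilage, stood at 0.458 to 0.637 CPM in controls, 0.930 to 1.11 CPM with siRNA 1 and 1.26 to 1.56 CPM with siRNA 2, rises of 1.86- and 2.49-fold at a low level, the former lost with limma (adjusted p = 0.255). Col16a1 rose 1.23- and 1.49-fold. With siRNA 1 that call was lost without control replicate 2 or 3 (adjusted p = 0.0692 and 0.1) and without siRNA 1 replicate 1 or 2 (0.0858 and 0.0958), in the fit of all 18 libraries (0.111) and with limma (0.29).

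The basement membrane pair stood above the controls with both siRNAs. Col4a2 was at 265.3, 280.0 and 282.2 CPM in controls, 330.3, 333.8 and 389.0 CPM with siRNA 1 and 463.0, 498.5 and 505.8 CPM with siRNA 2. The rises of 1.27- and 1.77-fold (log2 fold changes 0.35, SE 0.06, and 0.83, SE 0.06) passed with each siRNA (adjusted p = 0.00383 and 6.5e-06). Col4a1 was at 339.4, 357.9 and 368.1 CPM in controls, 383.7, 389.0 and 445.7 CPM with siRNA 1 and 519.6, 553.2 and 579.1 CPM with siRNA 2. It rose 1.55-fold with siRNA 2, whereas with siRNA 1 it missed the threshold (log2 fold change 0.19, adjusted p = 0.0541) and passed with the prefix in the model (0.24, adjusted p = 8.48e-09) and without siRNA 1 replicate 1 (0.0433). No library of either siRNA fell within the control range for these 2 genes. Col4a5 rose 1.11- and 1.41-fold, and the call for siRNA 1 (adjusted p = 0.0484) was lost when any 1 of the 6 libraries compared was left out, at 0.0561 to 0.194, and under DESeq2, RLE scaling, limma, the fit of all 18 libraries, no filter and protein-coding transcripts only, at 0.0564 to 0.627. Col4a3, Col4a4 and Col4a6 did not pass. Type IV RNA summed to 187.8 ± 6.18 TPM in controls, 212.9 ± 17.7 TPM with siRNA 1 and 302.7 ± 11.3 TPM with siRNA 2.

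Of 10 fibrillar genes tested, 6 rose and 0 fell with siRNA 2, and 2 rose and 0 fell with siRNA 1. The prefix in the model gave 7 up and 1 down with siRNA 2 and 6 up and 0 down with siRNA 1. Col1a1 (chromosome 11, 94936224 to 94953042) was at 82.6, 51.2 and 52.7 CPM in controls, 109.6, 113.5 and 86.3 CPM with siRNA 1 and 186.6, 128.9 and 146.1 CPM with siRNA 2. The C14 library was the highest control and the highest of siRNA 2. Col1a1 rose 2.47-fold with siRNA 2 (log2 fold change 1.31, SE 0.24, adjusted p = 0.00648), with log2 ratios of 1.18 within C14 and 1.40 within D2. With siRNA 1 its log2 fold change of 0.73 did not pass (adjusted p = 0.0865), although its libraries lay above the controls. It passed with the prefix in the model (0.58, adjusted p = 0.00381) and without control replicate 1 (0.98, adjusted p = 0.0213). That replicate is the only C14 control, and siRNA 1 then met D2 controls alone. Since Col1a1 was higher in C libraries in each group, the 0.98 mixes prefix with depletion.

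Col1a2, Col3a1, Col5a1 and Col5a2 rose 1.34-, 1.35-, 1.38- and 1.35-fold with siRNA 2 (adjusted p = 0.00166, 0.0246, 1.61e-05 and 1.72e-06). Col3a1 was at 1230, 1055 and 992.3 CPM in controls and at 1645, 1382 and 1391 CPM with siRNA 2. Its call was lost without control replicate 2 or 3 (adjusted p = 0.0775 and 0.0747) or siRNA 2 replicate 1 (0.0741) and with no filter on low counts (0.0717), and its log2 ratio was 0.42 within C14 and 0.44 within D2. Col5a2 also rose with siRNA 1, 1.12-fold (adjusted p = 0.00517), a call lost with limma (0.123): controls ran from 409.7 to 439.7 CPM, siRNA 1 from 472.1 to 476.5 and siRNA 2 from 547.7 to 594.1, in 3 separate ranges. Col1a2 with siRNA 1 did not pass (log2 fold change 0.21, adjusted p = 0.0777) except with the prefix in the model (0.16, adjusted p = 6.56e-05) and without control replicate 1 (0.28, adjusted p = 0.00295). The latter fit again had no C14 control, so its 0.28 mixes prefix with depletion. With the prefix in the model Col3a1 (0.14, adjusted p = 3.65e-05) and Col5a3 (0.17, adjusted p = 0.000184) also passed with siRNA 1. With siRNA 2 the prefix added Col11a1 (1.06, adjusted p = 0.0129) upward and Col5a3 (-0.14, adjusted p = 0.00133) downward.

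Col18a1 fell with both siRNAs, where 4.25% of all genes did. It was at 535.6, 495.8 and 502.1 CPM in controls and at 402.6, 405.6 and 390.0 CPM with siRNA 1, a fall of 0.36 on the log2 scale (adjusted p = 2.87e-05). In the fit of all 18 libraries neither siRNA's call held (adjusted p = 0.141 and 0.656). With siRNA 2 it was at 493.4, 459.7 and 469.6 CPM, and the fall of 0.11 (adjusted p = 0.0367) was lost without control replicate 1 or 3 (0.0901 and 0.0532) or siRNA 2 replicate 2 or 3 (0.146 and 0.115). The last of these is the library whose column is named SETD3. Without it, 13 members still rose with siRNA 2 and 0 fell, and the shares of all genes in that fit are not given here. Col17a1 fell with siRNA 1 (log2 fold change -0.46, adjusted p = 0.0253), a call lost without control replicate 2 or 3 (0.0715 and 0.104) or siRNA 1 replicate 1 or 2 (0.114 and 0.0758) and with limma (0.111).

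Of 3 type VI genes tested in depleted myoblasts, 1 passed, with siRNA 2. Col6a3 rose 1.14-fold with siRNA 2, from 644.5, 662.0 and 647.2 CPM to 712.8, 757.2 and 758.1 CPM (adjusted p = 0.00145; 0.654 in the fit of all 18 libraries), and stood at 622.8 to 678.5 CPM with siRNA 1. Col6a1 (24.6 to 42.3 CPM in controls) and Col6a2 (6.75 to 9.45 CPM) overlapped their controls with each siRNA, with log2 fold changes between -0.10 and 0.11. The prefix in the model gave a fall of Col6a2 with siRNA 1 (-0.27, adjusted p = 0.022), and summing libraries by prefix called Col6a1 and Col6a2 down with siRNA 1 and Col6a1 up with siRNA 2. Col12a1 rose 1.16-fold with siRNA 2 (adjusted p = 0.00131), from 188.3 to 195.5 CPM in controls to 211.0 to 232.1 CPM, and not with siRNA 1 (log2 fold change -0.07, adjusted p = 0.248). Adding the prefix called Col12a1 (-0.10, adjusted p = 0.00312) and Col7a1 (-0.30, adjusted p = 0.000922) down with siRNA 1. With siRNA 2 it called Col14a1 (0.62, adjusted p = 0.0242), Col19a1 (0.91, adjusted p = 0.0445) and Col23a1 (0.94, adjusted p = 0.00833) up, of which Col19a1 was not called in the summed libraries.

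**Figure D3:**
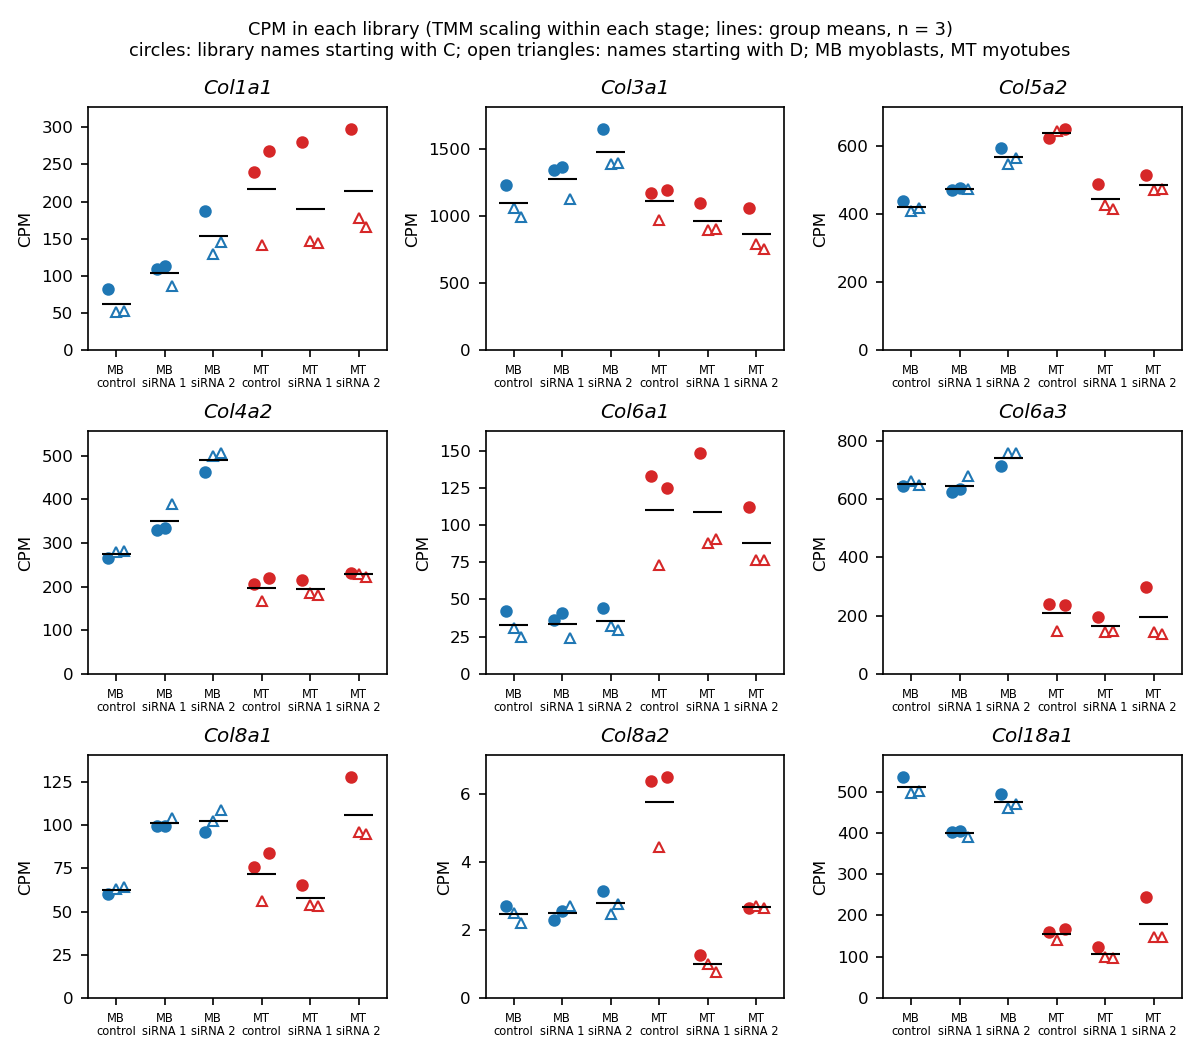
CPM of 9 collagen genes in each of the 18 libraries, from 0 upward, scaled within each stage. Circles are libraries whose names start with C, open triangles those starting with D, and lines are means of 3 libraries. Col4a2 and Col8a1 rise in depleted myoblasts in libraries of both prefixes, Col8a2 falls in depleted myotubes, and in Col1a1 and Col6a1 the C libraries lie above the D libraries of every group.

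In myotubes, depletion was tested in the 9 myotube libraries. With siRNA 1, 2 of 35 members rose and 5 fell, against 11% and 9.57% of 16097 genes tested, with a median log2 fold change of -0.09 against -0.0009 over all genes. Adding the prefix gave 4 up and 8 down, against 14.6% and 12.8%. With siRNA 2, 7 rose and 2 fell, against 15.8% and 16.4%, with a median of 0.003 against -0.0105. With the prefix in the model 13 rose and 5 fell, against 18.3% and 19.4%. Controls hold 2 C13 libraries and 1 D1 library while each siRNA holds 1 and 2, so a difference between prefixes moves both siRNAs the same way. Collagen RNA summed to 1982 ± 210 TPM in controls, 1618 ± 216 TPM with siRNA 1 and 1655 ± 264 TPM with siRNA 2, and the libraries overlapped.

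Col5a2 and Col8a2 fell with both siRNAs, where 6.27% of all genes did, and Col4a5 and Col24a1 rose with both, where 7.14% did. With the prefix these were 3 members down and 3 up. In that model 12.8% and 19.4% of all genes fell and 14.6% and 18.3% rose with siRNA 1 and siRNA 2 taken singly. The shares called with both are not given here. Col8a2 (chromosome 4, 126286793 to 126314330), the second chain of type VIII collagen, was at 6.40, 4.45 and 6.51 CPM in controls, 1.27, 0.994 and 0.766 CPM with siRNA 1 and 2.64, 2.72 and 2.64 CPM with siRNA 2. All 6 depleted libraries lay below the controls, and the falls were 5.72- and 2.16-fold (log2 fold changes -2.51, SE 0.19, and -1.11, SE 0.17, adjusted p = 1.65e-05 and 0.000392). Within C13 the log2 ratios were -2.35 and -1.29, and within D1 -2.34 and -0.73. Its partner Col8a1 went from 75.9, 56.2 and 83.7 CPM to between 53.2 and 65.5 CPM with siRNA 1 and to 127.8, 95.8 and 94.7 CPM with siRNA 2. The log2 fold change of 0.56 with siRNA 2 missed the threshold (adjusted p = 0.0651), though its libraries lay above the controls, and it passed with the prefix in the model (0.70, adjusted p = 1.11e-07). With siRNA 1 the prefix called Col8a1 down (-0.17, adjusted p = 0.0148), a call absent in the summed libraries.

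Col5a2 (chromosome 1, 45374321 to 45503282) was at 625.3, 643.8 and 650.1 CPM in controls, 488.2, 427.3 and 415.8 CPM with siRNA 1 and 516.0, 469.4 and 473.5 CPM with siRNA 2. Its controls of both prefixes lay close together and above every depleted library, and it fell by 0.53 and 0.40 on the log2 scale (adjusted p = 0.000128 and 0.000342). Col5a3 fell 1.64-fold with siRNA 1, from 205.5, 170.4 and 219.8 CPM to 137.5, 109.8 and 116.7 CPM. That call (adjusted p = 0.0172) was lost without control replicate 1 or 3 (0.0518 and 0.051) or siRNA 1 replicate 2 or 3 (0.058 and 0.0601), and within the prefixes its log2 ratios were -0.63 and -0.59. Col24a1, a fibrillar collagen at low level, was at 0.959 to 1.08 CPM in controls, 2.09 to 2.32 CPM with siRNA 1 and 2.07 to 3.07 CPM with siRNA 2, rises of 2.11- and 2.35-fold (adjusted p = 0.00102 and 0.000195). Col4a5 rose 1.37- and 1.22-fold, from 21.5 to 24.2 CPM in controls to 29.7 to 31.8 CPM and 25.8 to 30.6 CPM, the call for siRNA 2 being lost with limma (adjusted p = 0.0947).

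The largest change among the members tested in myotubes was that of Col23a1 (chromosome 11, 51289920 to 51583918), a transmembrane collagen, with siRNA 2. Its level was 3.24, 4.07 and 3.88 CPM in controls, 4.45, 8.53 and 7.16 CPM with siRNA 1 and 19.6, 33.7 and 34.9 CPM with siRNA 2. The rise with siRNA 2 was 7.82-fold (log2 fold change 2.97, SE 0.32, adjusted p = 0.000633), with log2 ratios of 2.46 within C13 and 3.08 within D1. With siRNA 1 its libraries also lay above the controls, at a log2 fold change of 0.84 that did not pass (adjusted p = 0.142) until the prefix was in the model (0.62, adjusted p = 0.0134), and not in the summed libraries. Col22a1 went from 1.17, 1.20 and 1.20 CPM to 2.79, 3.28 and 3.53 CPM with siRNA 2, a 2.69-fold rise (adjusted p = 2.33e-05). Col11a2 and Col7a1 rose 1.77- and 1.47-fold with siRNA 2, the second call being lost without control replicate 2 (adjusted p = 0.0526) and with limma (0.409). Col27a1 rose 1.95-fold (adjusted p = 0.0366), a call lost without control replicate 1 or 2 (0.0666 and 0.11) or siRNA 2 replicate 1 or 3 (0.0995 and 0.0869), with limma (0.0875) and with no filter (0.0652). With siRNA 1, Col12a1 fell by 0.27 on the log2 scale (adjusted p = 0.0118; 0.0533 without siRNA 1 replicate 3) and Col17a1 by 0.63 (0.0209), the latter not past the threshold without control replicate 2 or 3 (0.076 and 0.0714) or siRNA 1 replicate 2 (0.087), with limma (0.14) or in the summed libraries (0.0606). Col13a1 and Col25a1, the other transmembrane genes of myotubes, did not pass, with log2 fold changes between -0.14 and 0.21.

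Col3a1, Col1a2 and Col1a1 did not pass in depleted myotubes, and values of several members turned on the prefix. Col1a1 was at 240.3 and 267.4 CPM in the C13 controls and 140.8 CPM in the D1 control, at 280.8 (C13), 146.2 and 143.6 CPM (D1) with siRNA 1 and at 297.6 (C13), 178.2 and 165.9 CPM (D1) with siRNA 2. Its log2 fold changes were -0.18 and -0.01 without the prefix and 0.08 and 0.27 with it, the last passing (adjusted p = 0.000484). Col6a1 turned likewise with siRNA 1, from -0.01 to 0.22 (adjusted p = 0.00438). Col3a1 and Col1a2 were lower with both siRNAs without passing (log2 fold changes -0.20 and -0.35 for Col3a1, -0.21 and -0.24 for Col1a2). With the prefix in the model Col1a2 passed with both (-0.11 and -0.15, adjusted p = 0.0355 and 0.00538), though not in the summed libraries, and Col3a1 with siRNA 2 (-0.25, adjusted p = 0.000273). Without siRNA 2 replicate 1, the only C13 library of that group, Col3a1 and Col1a2 passed with siRNA 2 (-0.53 and -0.36, adjusted p = 0.0161 and 0.0193). That fit set D1 libraries alone against controls of both prefixes, so these values mix prefix with depletion. Col4a1 and Col4a2 had log2 fold changes of 0.21 each with siRNA 2 that did not pass, and did with the prefix in the model (0.30 and 0.29, adjusted p = 0.00146 and 0.00259). Col18a1 was at 122.7, 100.4 and 96.9 CPM with siRNA 1, below the controls at 140.4 to 167.2 CPM (log2 fold change -0.55, adjusted p = 0.147; -0.41 and 0.0453 with the prefix in the model, not called in the summed libraries), and at 245.6, 147.3 and 148.3 CPM with siRNA 2. Col15a1 was at 0.411 to 0.763 CPM with siRNA 2 against 0.0887 to 0.457 CPM in controls and did not pass (adjusted p = 0.0973), except with the prefix in the model (0.00269) and without control replicate 3 (0.0158). With siRNA 2 the prefix also called Col5a1 up (0.11, adjusted p = 0.0171), which the summed libraries did not, and Col10a1 down (-1.08, adjusted p = 0.0375).

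**Figure D4:**
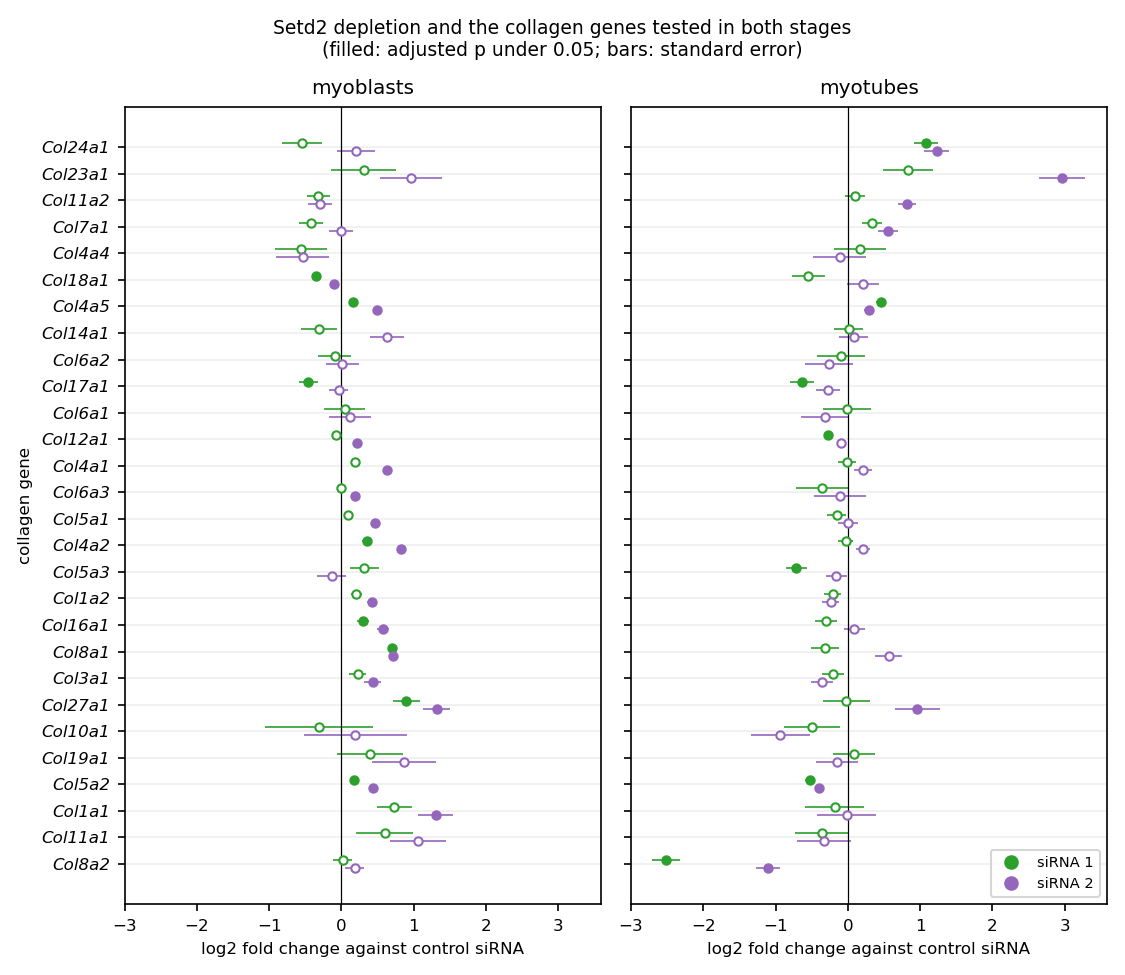
Log2 fold changes against the control siRNA, with standard errors, for the 28 collagen genes tested in both stages, in myoblasts on the left and myotubes on the right. Green is siRNA 1, purple is siRNA 2, and filled points passed an adjusted p of 0.05. Genes are ordered by the difference of the effect between the stages: Col8a2 and Col5a2 near the bottom are lower in depleted myotubes, Col24a1 and Col23a1 at the top are higher there, and most fibrillar and type IV genes lie to the right of 0 in myoblasts.

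Whether the effect of depletion differed between the stages was tested in all 18 libraries, by subtracting the myoblast effect, averaged over the siRNAs, from the myotube effect. Of 37 members, 3 differed upward and 8 downward, against 10.6% and 12.8% of 16930 genes tested, with a median of -0.31 against -0.0040 over all genes. Adding the prefix gave 3 and 12, against 14.3% and 17.7%. Col5a2 had the lowest adjusted p of the members: it rose with each siRNA in myoblasts and fell with each in myotubes, a difference of -0.76 (SE 0.06, adjusted p = 3.63e-08). Col8a2 differed by -1.91 (adjusted p = 8.15e-07), Col3a1 by -0.60 (0.0202), Col8a1 by -0.58 (0.023), Col16a1 by -0.54 (0.0148), Col1a2 by -0.54 (0.00485), Col4a2 by -0.49 (0.00373) and Col12a1 by -0.25 (0.00792). Upward were Col24a1 (1.33, adjusted p = 0.000779), Col11a2 (0.77, adjusted p = 0.00371) and Col7a1 (0.66, adjusted p = 0.0307). Leaving out 1 library ended some of these calls. Without myoblast control 2 or 3 or myotube control 1 or 3, Col3a1 had an adjusted p of 0.0537, 0.0617, 0.0659 and 0.0582. Without myoblast control 2 or 3, myoblast siRNA 1 replicate 1 or myotube control 2, Col7a1 had 0.08, 0.0795, 0.053 and 0.0803. Without myoblast control 1 or myotube control 1 or 3, Col8a1 had 0.058, 0.065 and 0.0704. Col12a1 missed without myotube control 1 (0.0541) and Col16a1 without myotube control 3 (0.0557). Without myotube control 3, the library named NT_2, 3 members differed upward and 5 downward, and the shares of all genes in that fit are not given here. Col1a1 (-1.12, adjusted p = 0.0717) passed with the prefix in the model (-0.78, adjusted p = 2.27e-05), as did Col4a1 (-0.25, adjusted p = 0.00459), Col5a1 (-0.24, adjusted p = 1.75e-05) and Col5a3 (-0.35, adjusted p = 1.15e-06). With limma, Col7a1, Col11a2 and Col16a1 did not pass (adjusted p = 0.304, 0.273 and 0.0783), nor did Col7a1 with no filter (0.0643).

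Transcript shares within a gene were compared for 17 members with a mean of at least 10 CPM in the controls of a stage. A share was counted as shifted when group means differed by at least 10 percentage points and the libraries did not overlap. Only transcripts of Col4a5 and Col25a1 met this. Col4a5-202 (53 exons) made up 68.4, 58.0 and 64.3% of the gene's TPM in control myoblasts and 81.9, 81.1 and 74.3% in control myotubes, and Col4a5-201 (54 exons) went from 21.2 ± 4.12% to 2.02 ± 3.49%. Col4a5-201 was lower than in controls with siRNA 1 in myoblasts and higher with siRNA 1 in myotubes: it was at 9.26 ± 8.34% in the former and at 12.3 ± 3.90% in the latter, and the siRNA 2 means, 10.2 and 12.4%, did not meet the rule. Col25a1-201 stood at 26.0 ± 3.44% of Col25a1 in control myotubes, and its share of 0 in myoblasts rests on 14 counts of the gene. These shares are estimates over transcripts that share most of their exons. For Col3a1, Col3a1-207, annotated as a retained intron, held 30.5 to 31.6% of the gene's TPM in every group mean.

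Genes that make, export and remodel collagen were counted beside the collagens themselves. Over all genes tested, 11.6% rose and 8.44% fell with siRNA 1 in myoblasts, 17.1% and 16.5% with siRNA 2, 11% and 9.57% with siRNA 1 in myotubes and 15.8% and 16.4% with siRNA 2, and 39.4% rose and 38.1% fell on differentiation. In that order of the depletions, adding the prefix to the model gave rises and falls of 10 and 0, 12 and 0, 2 and 7, and 3 and 7 among the modification and folding genes, and of 8 and 1, 7 and 3, 0 and 3, and 1 and 4 among the export genes. With the prefix, 18%, 23.7%, 14.6% and 18.3% of all genes rose and 14.3%, 22.6%, 12.8% and 19.4% fell. Of 18 tested genes that modify and fold collagen in the endoplasmic reticulum, 7 rose and 0 fell with siRNA 1 in myoblasts and 9 rose and 0 fell with siRNA 2, with medians of 0.08 and 0.18. They included Serpinh1, the collagen chaperone HSP47 (0.47 with siRNA 2), Plod2, a lysyl hydroxylase (0.28 with siRNA 1) and P4ha3, a prolyl hydroxylase subunit (0.42 with siRNA 2). In myotubes 2 rose and 3 fell with siRNA 1, and 3 rose and 5 fell with siRNA 2, among them P3h3, a prolyl 3-hydroxylase (-0.52 and -0.49), with Serpinh1 at -0.19 with siRNA 1. On differentiation 9 rose and 9 fell. Between the stages 3 differed upward and 11 downward, against 10.6% and 12.8% of all genes tested. With the prefix 3 and 12 did, against 14.3% and 17.7%. Of 13 genes of collagen export, 8 rose and 1 fell with siRNA 1 in myoblasts and 7 and 3 with siRNA 2, led by the COPII GTPase Sar1b (0.52 and 0.64) and the secretory transcription factor Creb3l1 (0.55 and 0.51). In myotubes 0 rose and 3 fell with siRNA 1 and 1 rose and 4 fell with siRNA 2, and Creb3l1 fell with both (-0.39 and -0.24). On differentiation 8 of the 13 rose and 4 fell.

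Adding the prefix gave, in the same order, 2 and 2, 3 and 2, 1 and 1, and 2 and 1 for procollagen proteinases and enhancers and 3 and 2, 5 and 1, 1 and 5, and 2 and 3 for crosslinking genes. Among the proteinases and enhancers, 7 of 10 genes were tested in myoblasts. Adamts14, which trims the amino end of procollagen, rose with both siRNAs (0.60 and 0.49) and fell with both in myotubes (-0.17 and -0.17), a difference of -0.71 between the stages (adjusted p = 9.86e-09). In myoblasts 2 rose and 0 fell with siRNA 1, and 3 rose and 1 fell with siRNA 2, while in myotubes 0 of 5 rose and 1 fell with each. On differentiation Adamts2 rose by 2.83 and the enhancers Pcolce2 and Pcolce fell by 2.67 and 0.96. Of 7 crosslinking genes, Lox, lysyl oxidase, fell with siRNA 1 in myoblasts (-0.32) and with both siRNAs in myotubes (-0.42 and -0.49). The basement membrane peroxidase Pxdn rose with both in myoblasts (0.18 and 0.53). In all, 1 rose and 1 fell with siRNA 1 in myoblasts, 3 and 0 with siRNA 2, 0 and 3 with siRNA 1 in myotubes and 0 and 2 with siRNA 2. On differentiation the transglutaminase Tgm2 and Loxl1 rose by 2.46 and 2.02 while Loxl2 and Loxl4 fell by 1.54 and 1.42.

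Of 12 fibril-binding proteoglycans and glycoproteins tested on differentiation 11 rose, led by Prelp and Postn (6.20 and 5.55), and Thbs2 fell by 1.09. Only 10 of the list passed the filter in myoblasts, and those that passed only through myotube libraries had to rise. In depleted myoblasts 4 of 10 rose and 1 fell with siRNA 1, and 6 rose and 1 fell with siRNA 2, with Fn1, fibronectin, falling with both (-0.17 and -0.43). In myotubes 1 of 12 rose and 3 fell, and 2 rose and 1 fell. Of 15 basement membrane partners of type IV collagen, 8 rose and 6 fell on differentiation, the falls being near the 38.1% of all genes, with Lama4 at 3.09 and Nid1 at -3.21. Of the 15, 14 passed the filter in myoblasts, so a rise here can also come from the filter. In myoblasts 3 of 14 rose and 1 fell with siRNA 1, and 7 rose and 0 fell with siRNA 2, with Lamb3 at 0.48 and 0.66. In myotubes 5 of 15 rose with each siRNA and 2 and 3 fell, with Lama3 at 1.52 and 1.98. Of 7 collagen receptors tested, 4 rose and 1 fell on differentiation, led by Itga11 (3.40), 1 rose and 0 fell with siRNA 1 in myoblasts, and 4 rose and 1 fell with siRNA 2. Of 12 collagenases, cathepsins and inhibitors tested in myoblasts, 2 rose and 3 fell with siRNA 1, and 4 rose and 3 fell with siRNA 2, with the inhibitor Timp2 at 0.63 and 0.95 and the stromelysin Mmp10 at -0.49 and -0.46. In myotubes 1 of 13 rose and 3 fell with siRNA 1, and 4 rose and 2 fell with siRNA 2, with Timp4 at 1.13 and Mmp9 at 1.58. Adding the prefix gave, in the same order, 5 and 2, 7 and 1, 2 and 5, and 2 and 2 for the fibril-binding list, 5 and 1, 11 and 0, 7 and 2, and 6 and 4 for the basement membrane partners, 2 and 0, 5 and 1, 1 and 1, and 0 and 2 for the receptors, and 4 and 4, 6 and 3, 2 and 4, and 6 and 4 for the degradation list. All single values in these lists are log2 fold changes from the same fits as the collagens.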

How the data were processed

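PolyA RNA of 18 libraries was deposited as 1 table per stage with estimated counts and TPM for 115088 transcripts. Per the file headers, values are named NumReads and TPM, as salmon writes them; no quantifier is named (not given in the sources used here). mm10 and DESeq2 are named, with no role, per the submitters' processing notes. Estimated counts, as deposited, carry no scaling between libraries, whereas TPM, as deposited, are relative to each library's own total. Transcripts were matched to GENCODE M21 (mm10), which placed 114200 in genes, and the 888 others (0.16% to 0.24% of counts) were dropped. Both units were then summed over each gene's transcripts, the counts being rounded afterwards.

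Columns were assigned by the library names in the labels. Tests used edgeR 4.0.16 in R 4.3.3: filterByExpr (minimum count 10), TMM scaling, robust glmQLFit and glmQLFTest and Benjamini-Hochberg adjustment over all genes tested, with calls at an adjusted p under 0.05. Depletion was fitted on the 9 libraries of a stage (6 residual degrees of freedom), and differentiation and the difference between stages on all 18 (12 residual degrees of freedom). Standard errors were derived from the quasi-likelihood F. CPM are TMM-scaled, and an SD is over 3 libraries. Nothing in the labels says whether replicates or libraries with 1 prefix came from separate cultures, so p-values measure the spread between these libraries only.

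Named genes were 16 collagens fixed by symbol, up to 4 called members per class and comparison by size, those called with both siRNAs or for the difference between stages, and up to 2 genes per direction of each pathway list. Members and lists were chosen with earlier results of these data known. The fits were tested on simulated counts that held no prefix effect, so that test does not cover differences between prefixes. Its outcome is not given here. Replicate numbers were not taken as pairing the libraries. Alternatives were DESeq2 1.42.0, RLE scaling, no filter, limma 3.58.1 on log2(TPM + 0.5), protein-coding transcripts only, prefix or replicate terms, other sets of libraries, and sums per prefix, the last added after the data were seen. Promoter sequence came from RefSeq (GRCm38.p6).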

Additional observations from a re-analysis of the deposited data

Results flagged for a closer look

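The effect of Setd2 depletion differed between myoblasts and myotubes, by the test of the difference itself (edgeR's quasi-likelihood test, all 18 libraries, adjusted p under 0.05), for 11 collagen genes. The values are mean log2 effects of both siRNAs in myotubes minus those in myoblasts. The difference was negative for Col8a2 (-1.91), Col5a2 (-0.759), Col3a1 (-0.603), Col8a1 (-0.579), Col16a1 (-0.539), Col1a2 (-0.536), Col4a2 (-0.493) and Col12a1 (-0.248). It was positive for Col24a1 (1.33), Col11a2 (0.772) and Col7a1 (0.664). With limma on log2(TPM + 0.5) the calls for Col11a2, Col7a1 and Col16a1 were lost (adjusted p = 0.273, 0.304 and 0.0783). In Col5a2 the separate tests had opposite signs, with rises in myoblasts and falls in myotubes for each siRNA (the rise with siRNA 1 was lost with limma, adjusted p = 0.123), whereas in Col8a2 the difference came with falls in myotubes and log2 fold changes of 0.02 and 0.18 in myoblasts that did not pass.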

How the results depend on the processing

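Counts of called members moved past 1.5 times in the following cases. For siRNA 1 in myoblasts, where 6 rose and 2 fell, limma on log2(TPM + 0.5) called 3 up and 1 down, the fit of all 18 libraries 1 down, the prefix in the model 11 up and 5 down, and the replicate block 11 up. For siRNA 2 in myoblasts the 1 fall became 0 in the fit of all libraries and 2 with the prefix. For siRNA 1 in myotubes, with 2 up and 5 down, the prefix gave 4 up and 8 down. For siRNA 2 in myotubes, with 7 up and 2 down, limma called 4 up and 4 down, the prefix 13 up and 5 down, and the replicate block 4 down. The summed libraries of 1 prefix, an alternative chosen after seeing the data, gave 11 up and 6 down, 17 up and 2 down, 3 up and 4 down, and 12 up and 4 down in the same order. Leaving out 1 library in turn gave 1 to 3 falls with siRNA 1 and 0 to 1 with siRNA 2 in myoblasts, 3 to 5 and 2 to 4 in myotubes, and 5 to 12 downward differences between stages. Limma also moved the split of all genes with siRNA 1 in myoblasts from 1807 up and 1315 down to 728 and 1907. For limma in the other comparisons, the shares of all genes called are not given here. The same holds for the fit of all 18 libraries, the replicate block, the summed libraries and the fits without 1 library. The counts from those settings therefore do not show whether the collagens moved apart from genes at large. The replicate numbers were not taken as pairing the libraries, since 7 of 9 same-numbered pairs in each stage, not all, had a correlation over 0.1. The remaining same-numbered pairs had unlike prefixes and correlations from -0.309 to -0.164. Every pair of like prefix was over 0.1 and every pair of unlike prefix was negative, so the correlation followed the prefix. The negative values are not separate evidence, since they follow in part from taking deviations within groups that hold both prefixes. The cause of the changes in these counts was not tested.

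Values near 0 changed sign. With the prefix in the model and then with summed libraries, siRNA 1 in myoblasts gave -0.157 and -0.17 for Col6a1 and 0.0101 and 0.00818 for Col6a3. The same pair of settings with siRNA 1 in myotubes gave 0.0824 and 0.0958 for Col1a1, 0.0807 and 0.111 for Col4a1, 0.0455 and 0.0753 for Col4a2, 0.223 and 0.253 for Col6a1, and 0.119 and 0.162 for Col6a2. With siRNA 2 in myotubes it gave 0.274 and 0.267 for Col1a1 and 0.089 and 0.144 for Col6a3. For the difference between stages it gave -0.0233 and -0.00322 for Col4a6, 0.0947 and 0.12 for Col6a1, and 0.179 and 0.194 for Col6a2. Limma gave 0.00721 for Col4a6 on differentiation, -0.105 for its stage difference, -0.031 for Col6a1 with siRNA 1 and -0.036 for Col6a2 with siRNA 2 in myoblasts, and 0.00795 for Col4a1 with siRNA 1 and -0.0938 for Col5a1 with siRNA 2 in myotubes. Protein-coding transcripts alone gave -0.0555 for Col4a6 with siRNA 1 and -0.0464 for Col6a2 with siRNA 2 in myoblasts. Col4a6 had -0.002 with summed libraries, and Col6a2 -0.00327 without the filter. Summed type IV RNA with siRNA 1 in myotubes went from -0.0162 in TPM to 0.0104 in CPM.

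Leaving out 1 library reversed other small values. With siRNA 1 in myoblasts, Col4a6 ran from -0.282 to 0.286, Col6a1 from -0.126 to 0.266, Col6a2 from -0.292 to 0.112 and Col6a3 from -0.0504 to 0.0122. With siRNA 2, Col6a1 ran from -0.0804 to 0.34 and Col6a2 from -0.145 to 0.141. With siRNA 1 in myotubes, Col4a1 ran from -0.128 to 0.0692, Col4a2 from -0.134 to 0.0522, Col6a1 from -0.288 to 0.143, Col6a2 from -0.427 to 0.0731 and Col15a1 from -0.349 to 0.93. With siRNA 2, Col1a1 ran from -0.327 to 0.169, Col5a1 from -0.0987 to 0.069, Col6a3 from -0.557 to 0.0959 and Col18a1 from -0.075 to 0.35. For the difference between stages, Col4a6 ran from -0.199 to 0.361, Col6a2 from -0.353 to 0.0289 and Col18a1 from -0.0798 to 0.128. Depth limits members with few counts, such as Col4a3 with 24 and 15 counts over the control groups.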
